A study of Rattus norvegicus with 6 samples.

Results

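The genes described here are 10 genes used as markers of afferent neurons and of the axon cytoskeleton, taken from the 32883 genes in the deposited table. The list was made by gene name, with no rule on their values, but with earlier results of these data known. They are the neurofilament subunits Nefl, Nefm and Nefh, the related intermediate filament gene Prph (peripherin), the neuronal tubulin gene Tubb3, the microtubule regulator Stmn2, the growth cone gene Gap43, the membrane fusion gene Snap25, and Sncg and Uchl1, which are abundant in many sensory neurons. All 10 had a row in the table and all 10 were tested.

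Transcripts were measured in the vestibular sensory epithelium, the balance organ of the inner ear, of 6 Long-Evans rats. The Control group held 3 rats given phosphate-buffered saline alone, and the STREP group held 3 rats given streptomycin, an aminoglycoside antibiotic that damages hair cells (HCs), at 500 mg/kg subcutaneously in the same saline each day for 6 weeks from postnatal day 21. Both groups held 2 males and 1 female, no genotype was altered, and tissue was taken on the last day of treatment. Each library held the pooled utricles and cristae of 1 animal, so the cell types and organs of an animal were not separated, and each of the 3 replicates in a group was a separate animal.

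HCs pass their signals to the peripheral endings of vestibular afferents, which end on type II HCs as boutons and wrap type I HCs in a cup called the calyx. The cell bodies of these afferents lie in the vestibular ganglion, outside the sensory epithelium, and their axons are myelinated by Schwann cells up to the base of the epithelium. Neurofilaments set the calibre of such axons, and microtubules built of alpha and beta tubulin carry transport along them. Several of these genes are also transcribed in cells other than neurons, so a transcript in the dissected tissue cannot be assigned to an afferent from its name alone.

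Library totals ran from 48568191 to 59906048 counts in Control and from 29333584 to 33744909 in STREP, so depth separated the groups. Counts were divided by a size factor per library to give normalised counts. A count of 0 allows up to 3 counts, or from 0.0501 to 0.102 CPM (counts relative to the library total) depending on the library. Mitochondrial transcripts took 4.82% to 7.70% of counts, with overlap between groups. Levels are compared within a gene only, since transcript lengths were not used.

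Of the 10 genes, 1 was called between groups. Tubb3 was higher in STREP by 2.43-fold (95% interval 1.47 to 4.02) and 0 genes were called lower. A call required a DESeq2 adjusted p-value under 0.05 over all genes tested and a fold change above 1.5. Across the 16250 genes tested, 3.24% were called in either direction, 1.87% higher and 1.37% lower. At an unadjusted p-value under 0.05, 2 of the 10 genes passed (Tubb3 and Gap43), against 12.2% of all genes tested, and the edgeR quasi-likelihood test called 0 of the 10 and 1.77% of the genes it tested. The groups did not overlap in 1 of the 10 genes (Tubb3), against 17.8% of all genes tested. The log2 fold change was below 0 in 6 of the 10 genes and above 0 in 4. Their median was -0.10, beside 0.01 over all genes tested. In bulk tissue, fewer cells of a type and less RNA per cell cannot be told apart.

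**Figure D1:**
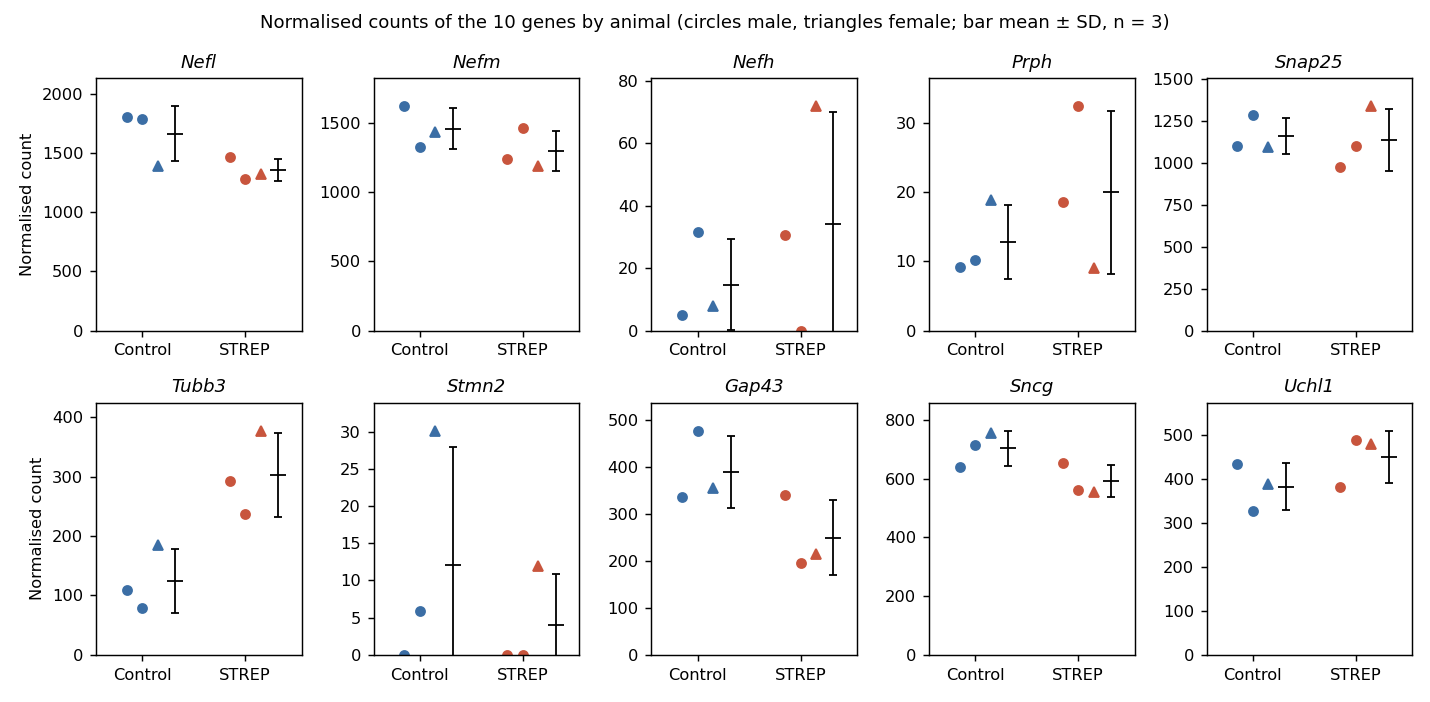
Normalised counts (vertical axes, each from 0) of the 10 genes in each animal, Control in blue and STREP in red, with the mean and SD of each group (n = 3) as black bars, which end at 0. Only in the Tubb3 panel do the 3 STREP animals (236 to 377) all sit above the 3 Control animals (79.1 to 184), and Nefh, Prph and Stmn2 stay under 72.

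The promoters of Tubb3 and of Tubb6, a beta tubulin gene that was called in the opposite direction, are shown first because these were the genes that moved apart within the tubulin family. The sequences are the 250 bases before the RefSeq start site on rat build GRCr8, 5′ to 3′ on the strand of the gene. The files were made on another build, so these positions serve only to place the promoters. Capitals mark matches on either strand to any of the motifs searched, which were the GC box GGGCGG, the E-box CANNTG, the TATA box TATAAA, the cAMP response element TGACGTCA and the ATF4 and C/EBP element TGATGNAA. No marked matches overlapped.
Tubb3, chr19:68365437-68365686, plus strand: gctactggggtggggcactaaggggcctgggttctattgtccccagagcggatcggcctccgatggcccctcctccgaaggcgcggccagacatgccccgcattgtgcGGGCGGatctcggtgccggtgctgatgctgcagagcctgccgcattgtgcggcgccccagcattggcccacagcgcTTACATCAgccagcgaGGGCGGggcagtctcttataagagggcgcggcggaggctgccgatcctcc
Tubb6, chr18:63213037-63213286, plus strand: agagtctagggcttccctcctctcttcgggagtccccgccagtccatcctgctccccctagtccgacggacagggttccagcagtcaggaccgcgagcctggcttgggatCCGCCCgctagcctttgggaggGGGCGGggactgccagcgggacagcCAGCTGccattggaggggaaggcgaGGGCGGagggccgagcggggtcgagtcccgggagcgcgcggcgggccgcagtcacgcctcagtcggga

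The Tubb3 promoter held 2 GC boxes and 1 match to TGATGNAA on the opposite strand, which began 66 bases before the start site. The Tubb6 promoter held 3 GC boxes and 1 E-box. Of 27457 rat promoters of the same length, 32.39% held a GC box, 65.17% an E-box, 13.09% a TATA box, 1.7% the cAMP response element and 3.27% a match to TGATGNAA. Promoters of 4 of the 10 genes were in the table used. All 4 (Tubb3, Prph, Sncg and Uchl1) held a GC box, 2 (Prph and Uchl1) held TATAAA, and 0 held an E-box. The GC content was 68.0% for Tubb3 and 71.2% for Tubb6, beside a median of 52.0% over all promoters. A match is a description of the letters and not a site of binding.

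Nefl and Nefm, the light and medium neurofilament subunits, were the most highly counted of the 10 genes, and neither was called. Nefl had normalised counts of 1802, 1792 and 1394 in the Control animals and 1465, 1286 and 1328 in the STREP animals. The 2 male Control animals stood highest, and the female Control animal lay within the STREP range. Nefl differed by -0.29 ± 0.17 on the log2 scale (SE; 95% interval -0.62 to 0.037; DESeq2 adjusted p = 0.509). Nefm had normalised counts of 1621, 1326 and 1436 in Control and 1242, 1463 and 1192 in STREP. Control 1 was the highest animal and STREP 2 exceeded the other 2 Control animals, so the groups overlapped. For Nefm the log2 fold change was -0.17 ± 0.17 (95% interval -0.49 to 0.15; DESeq2 adjusted p = 0.817). The interval of Nefl just held a 1.5-fold fall and that of Nefm did not, and neither held a 1.5-fold rise.

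Nefl and Nefm are assembled into the same filament, and their counts were compared within each library, where the size factor cancels. The ratio of Nefm to Nefl counts was 0.899, 0.740 and 1.03 in Control and 0.848, 1.14 and 0.898 in STREP. The groups overlapped (exact two-sided permutation p = 0.7; 3 animals against 3 cannot go below 0.1).

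Nefh, which encodes the heavy subunit of mature large axons, was barely counted. It had 8, 37 and 9 counts in the Control libraries and 23, 0 and 48 in the STREP libraries. The lowest and the highest library were both in the STREP group. Its log2 fold change was 1.21 ± 1.27 (95% interval -1.27 to 3.70; DESeq2 adjusted p = 0.830), and on the males alone it was -0.25.

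Prph, a neuronal intermediate filament of the peripheral nervous system, had 15, 12 and 22 counts in Control and 14, 30 and 6 in STREP. The 2 extremes were again both STREP libraries. Prph had a log2 fold change of 0.66 ± 0.91 (95% interval -1.12 to 2.44; DESeq2 adjusted p = 0.898). The intervals of Nefh and Prph held both a 2-fold rise and a 2-fold fall. Nefh differed from 0 to 48 counts between STREP libraries of similar total.

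Ina, which encodes alpha-internexin, another neuronal partner of the neurofilament subunits, was not among the 10 genes and was examined as a relative. Its normalised counts were 252, 71.4 and 78.3 in Control and 333, 257 and 338 in STREP. Every STREP animal lay above every Control animal, but Control 1 lay close to STREP 2. Its log2 fold change was 1.20 ± 0.46 (95% interval 0.30 to 2.10), with an unadjusted p of 0.00866 and a DESeq2 adjusted p of 0.152, so it was not called. Without Control 1 it was called, at 2.04. Per 100 Nefl counts, Ina gave 14.0, 3.98 and 5.61 counts in Control and 22.7, 19.98 and 25.45 in STREP (exact permutation test, two-sided, p = 0.1, the floor of the test). The intermediate filament genes of other cell types, Vim (vimentin, -0.13), Des (desmin, 0.25), Gfap (the astrocyte filament, 0.21) and Nes (nestin, -0.01), were not called.

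Tubb3 encodes class III beta tubulin, a tubulin widely used as a marker of neurons. Its normalised counts were 109, 79.1 and 184 in the Control animals and 293, 236 and 377 in the STREP animals. The groups did not overlap, and in both groups the female was the highest animal. Among all genes tested, every STREP animal lay above every Control animal in 9.12%. The means were 124 ± 54.0 (SD, n = 3) in Control and 302 ± 70.7 in STREP. The counts before scaling were 178, 93 and 214 in Control and 220, 219 and 252 in STREP, so they were higher in the shallower STREP libraries without any scaling. The log2 fold change was 1.28 ± 0.37 (95% interval 0.56 to 2.01; unadjusted p = 0.000501; DESeq2 adjusted p = 0.0182). The difference was 1.49 on the log2 scale in the males and 1.03 in the female pair.

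The rise of Tubb3 kept its direction in all 11 alternative settings and with each animal left out, with log2 fold changes between 1.04 and 1.68. Without independent filtering, by the adjusted p alone and with the threshold inside the test, the estimate was the main one, so direction was fixed. The call itself was less stable. It was lost with edgeR (adjusted p = 0.130 with a count filter and 0.111 without), with library totals as size factors in DESeq2 (adjusted p = 0.0517), and with the 1.5-fold threshold placed inside the DESeq2 test. It was also lost in DESeq2 without Control 1 (1.19, adjusted p = 0.128), without Control 2 (1.04, adjusted p = 0.136), without STREP 1 (1.31, adjusted p = 0.101) and without STREP 3 (1.09, adjusted p = 0.191). It was kept without Control 3 (1.68, DESeq2 adjusted p = 0.000299) and without STREP 2 (1.43, DESeq2 adjusted p = 0.0239), and when sex was added to the DESeq2 model (1.33, adjusted p = 0.000766).

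**Figure D2:**
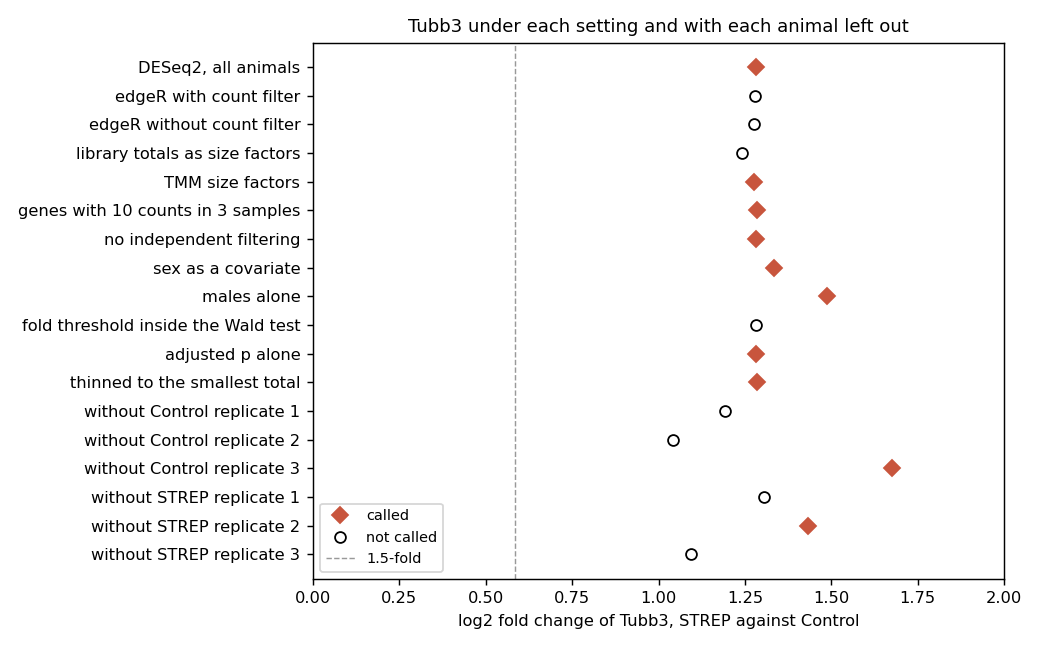
Log2 fold change of Tubb3 in STREP against Control (horizontal axis) under each setting and with each animal left out (vertical axis), where filled diamonds mark a call, open circles no call, and the dashed line a 1.5-fold change. Every value lies between 1.04 and 1.68, and the call was lost in 4 settings and 4 omissions.

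The other beta tubulin genes did not move with Tubb3. Tubb6, a broadly expressed beta tubulin, had normalised counts of 1173, 1204 and 1154 in Control and 660, 676 and 503 in STREP. Every STREP animal was below every Control animal, a pattern seen in 8.63% of all genes tested. Tubb6 fell by 0.94 on the log2 scale, with an SE of 0.18 (DESeq2 adjusted p = 2.49e-05; edgeR adjusted p = 0.0151), and the call held with each animal left out and was lost with the threshold inside the DESeq2 test. Tubb4a, a beta tubulin of brain and myelinating cells, went from 7039 ± 256 to 4805 ± 378 (SD, n = 3 each). Its log2 fold change was -0.55 ± 0.13, with a DESeq2 adjusted p of 0.000792, but it was under the fold threshold and not called. By the adjusted p alone, 3.72% of all genes tested passed. Tubb2b (-0.85, DESeq2 adjusted p = 0.128), Tubb2a (-0.21), Tubb4b (-0.06) and Tubb5 (0.00) were not called.

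Within each library, Tubb3 took 0.260%, 0.191% and 0.406% of the counts of the 7 beta tubulin genes in Control, and 0.794%, 0.705% and 0.843% in STREP. Tubb6 took 2.79%, 2.91% and 2.55% in Control and 1.79%, 2.01% and 1.12% in STREP. The shares of both genes separated the groups, in opposite directions, and are given as a description, since these 2 genes are set side by side for their calls. The ratio of Tubb3 to Tubb6 counts was 0.0931, 0.0657 and 0.159 in Control and 0.444, 0.350 and 0.750 in STREP. The summed normalised count of the 7 genes was 41432 to 45287 in Control and 33551 to 44730 in STREP, with overlap (exact two-sided permutation p = 0.3). Beta tubulin genes have similar coding sequences, and the estimated counts divide shared reads among them, so values of single members are uncertain to that extent.

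**Figure D3:**
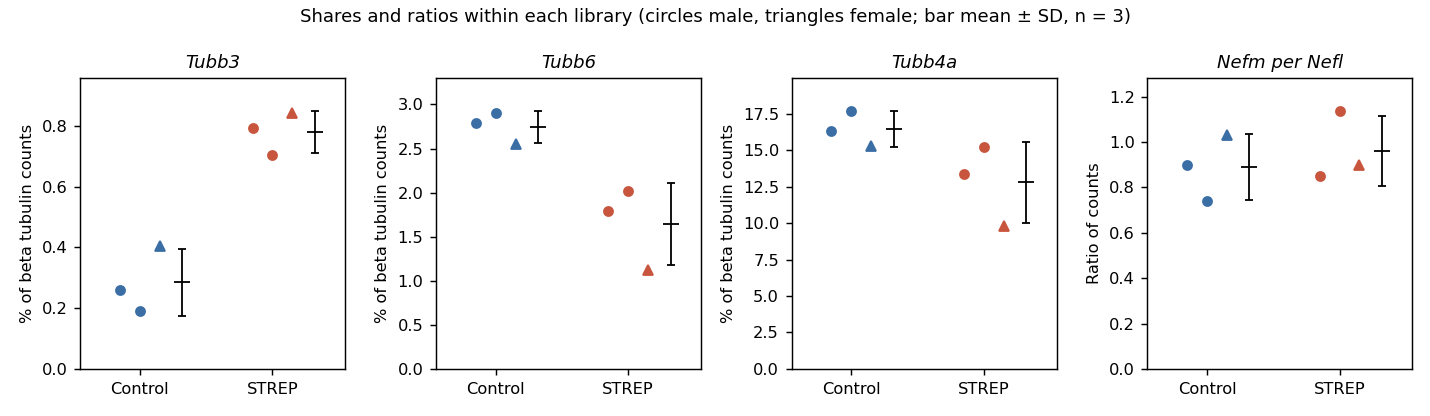
Shares of the counts of 7 beta tubulin genes (percent) taken by Tubb3, Tubb6 and Tubb4a, and the ratio of Nefm to Nefl counts, in each library, Control in blue and STREP in red, with the mean and SD (n = 3) as black bars. The Tubb3 share was 0.191% to 0.406% in Control and 0.705% to 0.843% in STREP, while the ratio of the neurofilament subunits overlapped.

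Stmn2, a stathmin that binds tubulin in growing axons, was at or near 0. It had 0, 7 and 35 counts in Control and 0, 0 and 8 in STREP. A single female library in each group carried most of its counts. The fitted log2 fold change of -1.61 had a 95% interval from -5.79 to 2.57 (DESeq2 adjusted p = 0.891), and the edgeR count filter removed the gene. Among its relatives, Stmn1, which is widely expressed in dividing and neural cells, gave -0.37 (DESeq2 adjusted p = 0.521). Stmn3, a neuronal stathmin, had normalised counts of 756, 688 and 821 in Control and 829, 1014 and 1113 in STREP. Its groups did not overlap, by a margin smaller than the spread within each, and it was not called (log2 fold change 0.38 ± 0.19; DESeq2 adjusted p = 0.363). Stmn4 was at 0 in all Control libraries and at normalised counts of 6.66, 4.32 and 0 in STREP.

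Gap43 encodes a membrane protein of growth cones and regrowing axons. Its normalised counts were 335, 476 and 355 in Control and 340, 194 and 214 in STREP. STREP 2 and STREP 3 lay below all Control animals, and STREP 1 lay just above the lowest of them. The means were 389 ± 76.3 in Control and 249 ± 78.8 in STREP (SD, n = 3 each). Gap43 had a log2 fold change of -0.64 ± 0.30 (95% interval -1.22 to -0.06), with an unadjusted p of 0.0301 and adjusted p-values of 0.315 with DESeq2 and 0.391 with edgeR. The gene was therefore not called, although its interval lay below 0. Per 100 Nefl counts it gave 18.6, 26.6 and 25.5 in Control and 23.2, 15.1 and 16.1 in STREP, with overlap (exact two-sided permutation p = 0.2). Its growth cone relatives Marcks (0.32, DESeq2 adjusted p = 0.774) and Basp1, at normalised counts of 0 to 14.0, were not called.

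Snap25 encodes a SNARE protein that drives the fusion of synaptic vesicles with the membrane. It had normalised counts of 1101, 1281 and 1096 in Control and 973, 1098 and 1334 in STREP. Both the lowest and the highest animal were in the STREP group. The log2 fold change was -0.03 ± 0.18, and the 95% interval of -0.38 to 0.32 held neither a 1.5-fold rise nor a 1.5-fold fall (DESeq2 adjusted p = 0.987). The related SNARE genes Snap29 (0.10) and Snap47 (-0.11) were not called.

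Sncg encodes gamma-synuclein, a small protein of sensory axons. Its normalised counts were 638, 715 and 755 in Control and 654, 563 and 555 in STREP. STREP 1 lay above the lowest Control animal, and the other 2 STREP animals lay below all Control animals. Between groups Sncg differed by a log2 fold change of -0.25 ± 0.18 (95% interval -0.61 to 0.11; DESeq2 adjusted p = 0.690). Sncb, which encodes beta-synuclein, was at 0 in all Control libraries and at normalised counts of 3.99, 0 and 19.4 in STREP.

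Uchl1 encodes a ubiquitin hydrolase that is abundant in neurons. Its normalised counts were 433, 326 and 387 in Control and 382, 489 and 479 in STREP. STREP 2 and STREP 3 were the highest animals, while STREP 1 lay within the Control range. Uchl1 gave a log2 fold change of 0.23 ± 0.23 (95% interval -0.21 to 0.68; DESeq2 adjusted p = 0.812). The related hydrolase genes Uchl5 (0.02), Bap1 (-0.12) and both rows named Uchl3 (-0.46 and 0.29) were not called.

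**Figure D4:**
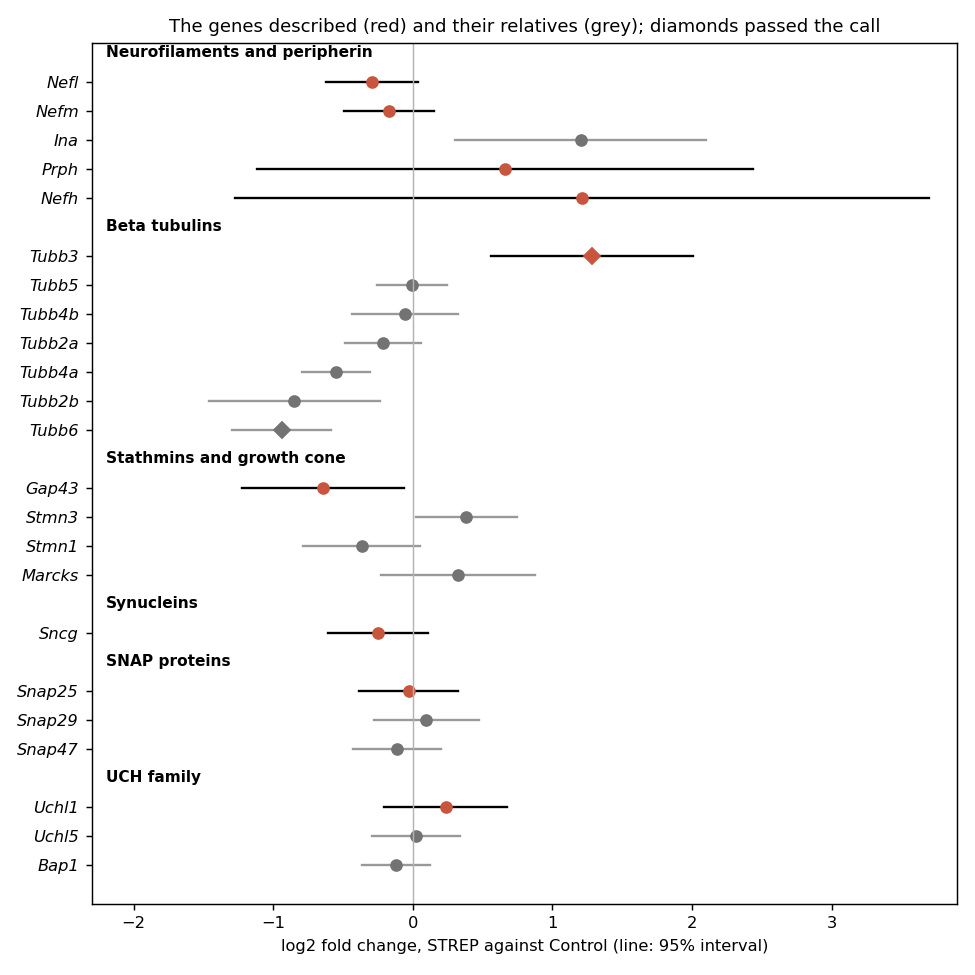
Log2 fold change in STREP against Control with its 95% interval (horizontal axis) for 9 of the 10 genes (red) and their relatives (grey), where diamonds mark called genes and circles genes not called. Tubb3 (1.28) and Tubb6 (-0.94) were called in opposite directions, and Stmn2, whose interval runs from -5.79 to 2.57, is left off the axis.

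A difference between the sexes was tested as an interaction. In a DESeq2 fit with a sex by treatment term, 0 of the 7 genes that received an adjusted p-value passed 0.05. At an unadjusted p under 0.05, 0 of the 10 genes passed, and the smallest was 0.211, for Nefh. The female difference rested on 1 animal in each group.

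The label of the list was compared with other neuronal genes. Of 26 genes of neuronal cell bodies and identity, 6 were at 0 in every library, among them Pou4f1 and Tlx3, transcription factors of sensory neurons, the vesicular glutamate transporter Slc17a7, the sodium channel Scn10a and the RNA-binding protein Celf4. Rbfox3, the gene of the neuronal nuclear antigen NeuN, had normalised counts of 228 to 291 in Control and 186 to 204 in STREP (log2 fold change -0.43 ± 0.26; DESeq2 adjusted p = 0.540). The most counted genes of this list were Ntrk2, a neurotrophin receptor (0.12), and Isl1, a transcription factor of sensory neurons that HCs also express (-0.12). With defining genes of ganglion neurons at 0 and Nefh, Prph and Stmn2 near 0, the list is described here by its genes and not as a cell type. The summed normalised count of the 26 genes was 17330 to 20322 in Control and 16787 to 19922 in STREP. Ntrk2 and Isl1 gave most of that sum, so it is not a level of neurons alone.

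The other genes of the axon and its terminal were counted in 5 wider lists. None of the 19 tested genes of neuronal cell bodies, 23 of synaptic vesicle release, 16 of axon injury and regrowth, 25 of the node, axolemma and calyx, and 6 of efferent and autonomic axons was called by DESeq2 or by edgeR. Unadjusted p-values under 0.05 numbered 4, 4, 3, 0 and 1 in these lists. Their median log2 fold changes were 0.12, 0.03, -0.10, 0.14 and 0.54, beside 0.01 over all genes tested. Among 34 tested axon cytoskeleton genes, 1 was called (2.94%), which was Tubb6, and the median was -0.14. Every STREP animal lay above every Control animal in 6 of the 34 and below in 6, against 9.12% and 8.63% of all genes tested. Crmp1 was among the 6 above and narrowly missed the call (log2 fold change 0.74 ± 0.24; DESeq2 adjusted p = 0.0530; edgeR adjusted p = 0.156). Unadjusted p-values under 0.05 numbered 8 in that list, and edgeR called 1 of its genes.

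The single genes named here are the most counted of each list, and other genes of these lists, Tubb6 aside, ranged more widely, from -1.33 to 6.18 on the log2 scale, without being called. Tuba1a, an alpha tubulin (-0.31), and Sptan1, the alpha spectrin of the axonal membrane skeleton (-0.23), were the most counted axon cytoskeleton genes outside the calls. Vamp2, the vesicle partner of SNAP25, gave 0.17, and Nsf, which takes SNARE complexes apart, gave -0.32 (DESeq2 adjusted p = 0.417). Cntn1, a cell adhesion protein of the axon surface, gave 0.27 and Kcna2, an axonal potassium channel, -0.05. Among injury and regrowth genes, Anxa1 gave 0.35 and Csrp1 0.10, and Gadd45a, a stress gene, passed the adjusted p (0.0152 with DESeq2) at -0.56 without passing the fold threshold. Its normalised counts were 2851 to 3629 in Control and 1920 to 2344 in STREP. In that list 7 genes, among them Sprr1a, Vip and Nts, were at 0 in every library.

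The efferent list held Chat, Slc5a7 and Slc18a3, the genes that define cholinergic neurons, and all 3 were at 0 in every library. Tac1, which encodes substance P (0.30), and Slc18a2, a vesicular monoamine transporter (0.18), were its most counted genes and were not called.

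The summed normalised count of the 10 genes was 5664 to 6054 in Control and 5362 to 5572 in STREP, with Nefl, Nefm and Snap25 giving most of it. Every STREP sum lay below every Control sum, with less than 100 between the nearest animals. This separation depended on the scaling. As a percent of all counts of the library, the 10 genes took 0.0165, 0.0146 and 0.0134 in Control and 0.0138, 0.0156 and 0.0110 in STREP, and the groups overlapped.

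**Figure D5:**
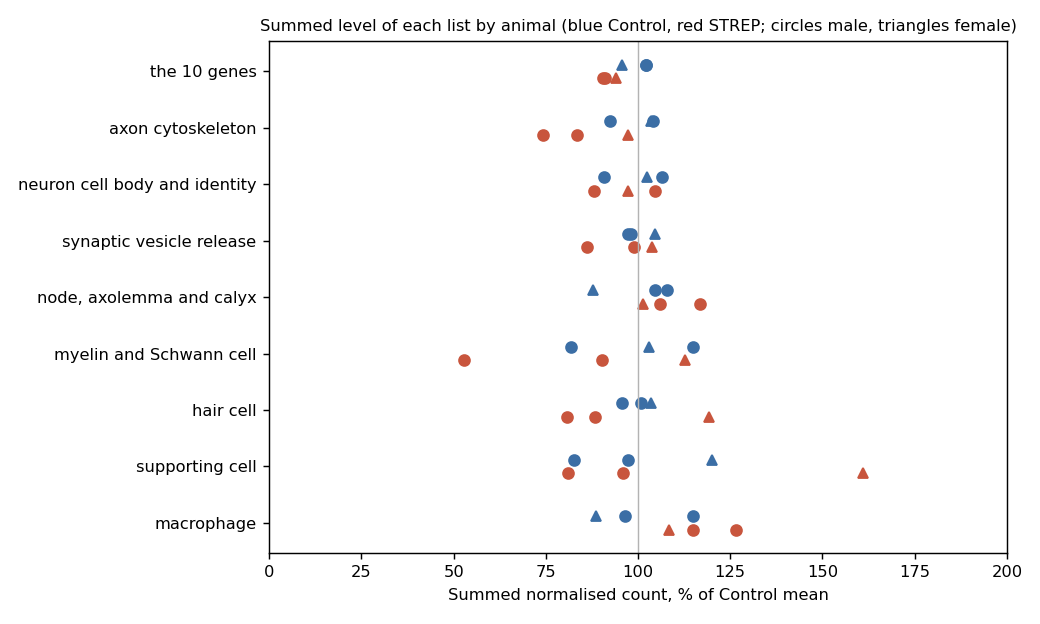
Summed normalised count of each gene list in each animal, as a percent of the Control mean (horizontal axis), with Control in blue, STREP in red, males as circles and females as triangles. The sums of the 10 genes lie close to 100% in all animals, while the myelin sum of STREP 2 lies far to the left and the supporting cell sum of STREP 3 far to the right.

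Genes of the cells around the afferents were examined next. Of 21 myelin and Schwann cell genes, 19 had a log2 fold change below 0, with a median of -0.38, and 8 had every STREP animal below every Control animal, against 8.63% of all genes tested. Calls were made for 2 of them in opposite directions (9.52%). Sox10, the transcription factor of Schwann cells that supporting cells also express, rose by 0.95 ± 0.19 on the log2 scale (DESeq2 adjusted p = 0.000104; edgeR adjusted p = 0.0329). Prx, which encodes periaxin, a protein of myelinating Schwann cells, fell by 0.68 on the log2 scale (DESeq2 adjusted p = 0.0425; edgeR adjusted p = 0.198), a call that was lost with any animal left out but STREP 1, at values between -0.98 and -0.54. The summed myelin count was 490336 to 688345 in Control and 540153, 316605 and 674508 in STREP, with STREP 2 the lowest of all animals. S100b held much of that sum, at 176951, 272604 and 265589 in Control and 194784, 135211 and 363799 in STREP. The high sum of STREP 3 therefore leans on S100b and is not a level of the myelin genes in general. Without STREP 2, the log2 fold change of Nefl was -0.25 and that of Tubb3 1.43. The part of myelinating cells in the values of the 10 genes was not tested.

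Of 26 genes on the HC list, 9 were called lower and 1 higher (38.5% called), with a median of -0.35. Kcna10, a potassium channel of HCs, fell by 1.56 on the log2 scale, Loxhd1, a stereocilia protein, by 1.21, Atp2b2, the bundle calcium pump, by 0.93, Chrna9 and Chrna10, subunits of the efferent acetylcholine receptor, by 0.88 and 0.70, and Gfi1, an HC transcription factor, rose by 1.20 (DESeq2 adjusted p of 2.21e-05 or smaller for each). The summed count of the HC list was 225713 to 244020 in Control and 190793 to 281614 in STREP. Otoa, which encodes otoancorin and is not specific to HCs, held much of that sum. It went the other way, at 72097 to 86506 in Control and 99443, 78718 and 153674 in STREP. Without Otoa, left out after its values were seen, the sum was 151954 to 157515 in Control and 109047 to 127940 in STREP, with no overlap. Per 100 counts of Myo7a, an HC myosin, Nefl gave 33.0, 38.2 and 30.8 in Control and 43.5, 34.2 and 40.1 in STREP, with overlap (exact two-sided permutation p = 0.2). Myo7a itself gave -0.49 (DESeq2 adjusted p = 0.0162, under the fold threshold), with every STREP animal below every Control animal, so the ratio ran opposite to the Nefl counts. The part of HCs in the values of the 10 genes was not tested.

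Among 19 supporting cell genes, Fgfr3, a growth factor receptor, was called higher (0.89, DESeq2 adjusted p = 0.00142) and 0 were called lower, and among 10 macrophage genes Mrc1, a scavenger receptor, was called higher (0.76, DESeq2 adjusted p = 0.00997) and 0 lower. Summed supporting cell counts were 1133130 to 1648760 in Control and 1113110 to 2211060 in STREP, and summed macrophage counts 4560 to 5912 and 5584 to 6510. None of the tested genes of red blood cells (5), fibroblasts (8), endothelium (7), dark cells and melanocytes (9) and glia outside the nerve (5) was called by DESeq2 or edgeR, and 0, 2, 0, 5 and 1 of them had an unadjusted p under 0.05. Summed counts of these 5 lists overlapped between groups, except for dark cells and melanocytes (73197 to 79560 in Control and 66715 to 71923 in STREP), whose sums overlapped as a percent of the library (0.177% to 0.216% in Control and 0.142% to 0.194% in STREP). Their part in the values of the 10 genes was not tested.

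The 7 genes that had a mean normalised count of at least 100 did not share 1 profile over the 6 animals. Of their 21 pairs, 10 had a positive correlation and 11 a negative one, with Pearson r from -0.951 to 0.883. The genes most like the mean of their standardised log2 levels, which is not the profile of any single member, were Catip (Pearson r = 0.995), Gnb5 (0.992), LOC100125362 (0.991), Fscn2 (0.987), an actin bundling protein of stereocilia, and Ciapin1 (0.985). Over the same animals, 239 of 12124 genes had r above 0.9. On the log2 CPM scale, the 5 most similar genes shared 0 with these, and r for the 5 was 0.539 to 0.826. The points share libraries and depth, and the value is a description of these animals.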

How the data were processed

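Libraries were made from total RNA with the SMARTseq2 protocol, which primes on poly(A) and keeps no strand, so a gene and an antisense partner cannot be told apart. The authors aligned the reads with STAR 2.5.3a to the rat genome build Rnor6.0 and quantified genes with RSEM 1.3.0 (tools per the submitters' processing notes), and deposited unscaled expected counts per gene. All 32883 genes were used, every value was exactly whole (0 exceptions), and 0 columns were left unused. Groups were taken from the labels, and replicates were numbered in order of deposition. No label of a library or sequencing batch was used. Titles of STREP 1 and STREP 2 share a code whose meaning is not given. Their counts differed by more than sampling noise, with a chi-square per gene of 51.6, the lowest of the 15 pairs of libraries (55.3 to 202 for the others). This value grows with depth, and STREP 1 and STREP 2 had the smallest library totals, so it does not rank likeness. They were treated as separate animals, as the study's methods state.

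Analysis used R 4.3.3. DESeq2 1.42.0 was run on all genes by its median-of-ratios scaling and Wald test of group, filtering independently at 0.05. Levels are counts divided by size factors, and intervals of the fold change are the estimate and its SE at 95%. Floors speak for counting error alone, since amplified reads carrying no molecular identifier do not each stand for a molecule. Calls needed an adjusted p under 0.05 and a 1.5-fold change. Ratios within libraries were compared with exact two-sided permutation tests. Alternatives were edgeR 4.0.16, other scaling, filters, thresholds, sex as a covariate, males alone, thinning and leaving out each animal. Counts were simulated for 32883 genes with a 2-fold change in 200 genes (mean count of at least 100). DESeq2 recovered 157 and edgeR 130, and 26.6% and 16.7% of the genes called were unchanged ones. These shares depend on how many genes were changed and by how much, so they are not error rates of the calls made here.

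The 10 genes and all lists were chosen with earlier results of these data known. Named genes were the 10 genes, their families, the called genes of each wider list (the 6 smallest adjusted p-values where more were called), the 2 most counted genes of a list with fewer than 2 calls (for cells outside the nerve only called genes are named, with list sums), and the 5 most similar profiles. A few genes that this rule or a list names are not reported here. Promoters came from RefSeq (GRCr8).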

Additional observations from a re-analysis of the deposited data

How the results depend on the processing

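No paired analysis was possible because the sample titles carry no replicate number within a group, so animals cannot be matched between groups. The number of genes called in the whole table fell from 527 to 264 and 295 with edgeR (with and without a count filter), 309 with library totals as size factors and 82 with the 1.5-fold threshold inside the Wald test. Calls among the 10 genes went from 1 to 0 in the same 4 settings and ran from 0 to 1 with an animal left out. Calls in the wider lists went from 15 to 2 with the threshold inside the Wald test and ran from 12 to 23 with an animal left out, with the highest value without STREP 1. The cause was not tested. On the males alone, log2 fold changes reversed for Nefh (-0.25), Vamp2 (-0.0038), Anxa1 (-0.45), Csrp1 (-0.12), Uchl5 (-0.053), Tubb5 (0.036), Marcks (-0.027) and Nes (0.18), and Nes also reversed with library totals (0.0030) and with sex as a covariate (0.0064). None of these had been called. With an animal left out, values crossed 0 for Snap25 (-0.16 to 0.069), Stmn2 (-5.76 to 0.42), Ntrk2 (-0.0018 to 0.21), Vamp2 (-0.032 to 0.35), Anxa1 (-0.23 to 0.87), Csrp1 (-0.14 to 0.26), Kcna2 (-0.24 to 0.12), Slc18a2 (-0.32 to 0.44), Gfap (-0.035 to 0.49), Nes (-0.12 to 0.15), Tubb4b (-0.31 to 0.091), Uchl5 (-0.032 to 0.055), Vim (-0.27 to 0.0065), Snap29 (-0.052 to 0.24) and Tubb5 (-0.046 to 0.062). For the 10 genes, 103 of the values under other settings kept direction and call, 4 lost the call (all Tubb3) and 1 reversed. Settings of independent filtering or of the threshold reused the main estimate, so their direction could not change. Values of Nefh, Prph and Stmn2 rest on 0 to 48 counts in a library and varied between animals of a group at similar depth.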
